A study of Mus musculus with 6 samples.

Results

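The clustered protocadherins are cadherin-family adhesion genes that lie in 3 tandem arrays on mouse chromosome 18. Members were taken by symbol from the deposited count table, which gave 59 genes of 23420: 15 in the alpha cluster, 22 in the beta cluster and 22 in the gamma cluster. Messenger RNA was sequenced from cultured mouse epidermal keratinocytes in 6 libraries. All 6 came from cells with loxP-flanked alleles of Gata6 (Gata6 fl/fl) at passage 8 to 10, grown in low-calcium medium and given 1 µM 4-hydroxytamoxifen for 6 hours. The 3 libraries labelled iKO also carried K14CreERT2, a tamoxifen-activated Cre driven by the promoter of the basal keratin gene Krt14, and the 3 labelled WT lacked it. The iKO library whose column is numbered 33 matches no title and is called iKO 33, a replicate of that group with no number of its own. No label tells if the libraries within a group are from different animals or cultures, and the p-values therefore reflect library-to-library spread that could be only technical.

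In the alpha and gamma clusters each gene has its own promoter and its own variable exon, which encodes the extracellular cadherin repeats, the transmembrane segment and the start of the cytoplasmic tail. That exon is spliced to constant exons shared by the whole cluster, which encode the rest of the tail. Beta genes are single-exon genes without a constant part. In neurons, where the family is best known, cells use different sets of these promoters, CTCF and cohesin bring a chosen promoter to distant enhancers, and the proteins bind like to like and let a neuron tell its own branches from those of its neighbours. The C-type genes at the end of the alpha and gamma clusters are regulated differently from the other members. No sequence of these genes is printed here.

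Reads assigned to genes numbered between 21943467 and 83337263 per library, so 1 read corresponded to 0.0118 to 0.0461 CPM (a gene's reads as a share of the library total, scaled by the TMM method). Gata6 itself stood at 2.86, 0.519 and 5.37 CPM in WT 2, WT 3 and WT 4 and at 14.2, 21.02 and 17.0 CPM in iKO 3, iKO 4 and iKO 33. The targeted gene thus went against the labels, and every direction below is that of libraries labelled iKO relative to libraries labelled WT. Counts per gene do not show whether the floxed exons were lost. Xist was at 605 to 889 CPM in the libraries labelled WT and at 0.0824 to 2.62 CPM in those labelled iKO, while the Y-linked Eif2s3y was at 0 to 0.0507 against 33.7 to 53.9 CPM, so that sex and genotype label cannot be told apart. In bulk RNA, fewer cells that express a gene and less RNA per cell cannot be told apart either. Of 10 keratinocyte markers, all tested, 3 were higher and 7 lower, and Krt5 and Krt14 reached at least 12916 CPM in each library. None passed in edgeR, and DESeq2 called 2, Krt10 and Trp63, against 6.12% of genes. Trp63, a basal transcription factor gene, stood at 331, 307 and 323 CPM in WT 2, WT 3 and WT 4 and at 203, 191 and 205 CPM in iKO 3, iKO 4 and iKO 33 (-0.68, SE 0.096, edgeR adjusted p = 0.0529, DESeq2 adjusted p = 9.65e-09).

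The arrays run in the order alpha, beta, gamma along chromosome 18 between 36930285 and 37841873 (GRCm38.p6, the patch release of mm10). The alpha genes occupy 36930285 to 37188897, the beta genes 37264998 to 37521419 and the gamma genes 37661775 to 37841873. In the GENCODE annotation the gamma genes have 33.2% to 72.2% of their exon bases to themselves, and the alpha genes with a value have 45.1% to 51.4%. Pcdhga11, for example, shares 2119 bases with the other gamma genes and has 2637 of its own. The beta genes share nothing except Pcdhb21 and Pcdhb22, which overlap each other and keep 90.3% and 93.1%. The deposited counts bear on how shared exons were treated: in WT 2, WT 3 and WT 4 Pcdhga6 had 0 counts while Pcdhgc3 had 1845 to 5396. Reads of the shared exons were therefore not counted for each member. Whether such reads were dropped or given to 1 member is not given in the sources used here. Counts of a member that received none of these reads reflect its own exons. If Pcdhgc3 received them, its counts and the gamma sums and shares that include it would hold reads of shared exons.

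Near-identical stretches in the variable exons limit some members more than others. Over all windows of 50 bases in the unshared exons, the share also found in transcripts of another gene had a median of 14.7% among 10 genes of the alpha 1 to 12 series, 3.48% among beta genes, 0.459% among gamma A genes and 9.18% among gamma B genes. It was 0% in the alpha and gamma C types. The highest values were 23.4% for Pcdha7 in the alpha series and 16.9% for Pcdhgb1 in the gamma series, so counts of alpha and gamma B members are uncertain to that extent. Pcdhga11 had 0% and Pcdhga12 0.956%.

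The gamma cluster held most of the reads of the family, beta came next, and alpha was at the edge of detection. Summed over members, gamma CPM averaged 91.0 ± 11.7 under the WT label and 78.6 ± 8.17 under the iKO label (SD, n = 3 each). The beta cluster measured 17.5 ± 8.41 and 19.6 ± 5.49 CPM, and the alpha cluster 0.0940 ± 0.0189 and 0.174 ± 0.0835 CPM. Libraries of the 2 groups overlapped in all 3 sums. The sums carry no test, and that of the beta cluster changed direction when WT 3 or iKO 33 was left out.

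**Figure D1:**
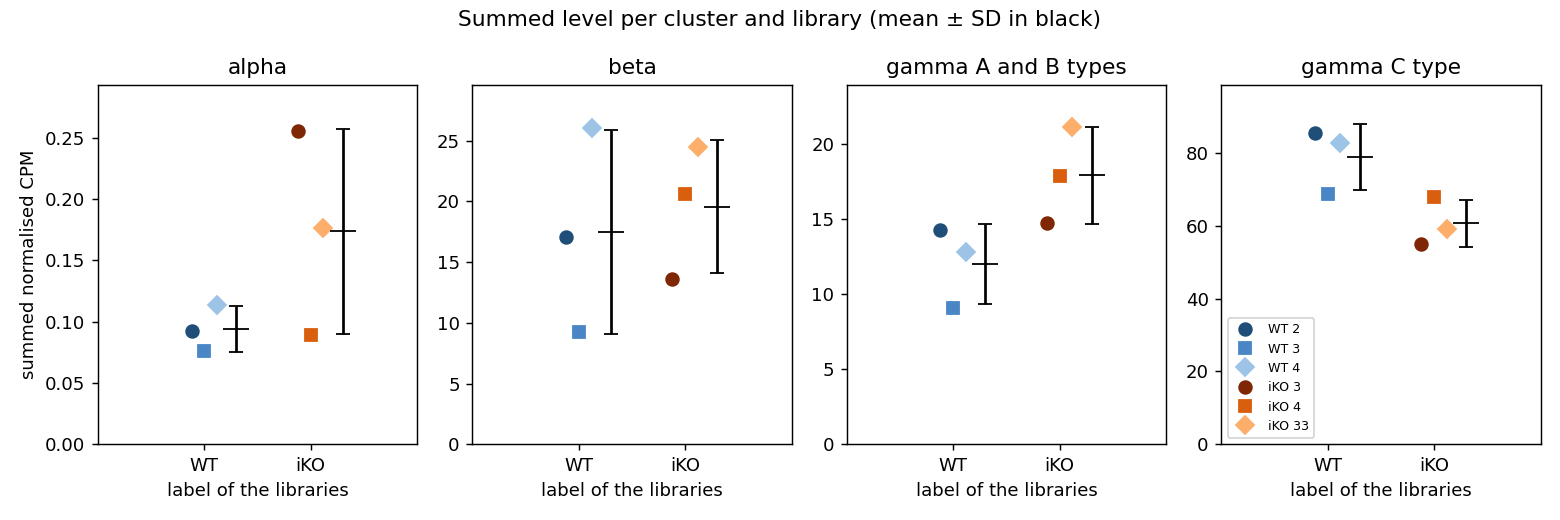
Summed normalised CPM per library (points) for the alpha cluster, the beta cluster, the gamma A and B types and the gamma C type, with the mean and SD of each group in black and a separate linear axis from 0 in each panel. The gamma A and B sums of the libraries labelled iKO (14.7 to 21.1 CPM) all lie above those of the libraries labelled WT (9.07 to 14.2 CPM), the gamma C sums lie the other way, and the alpha and beta sums overlap.

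Within the gamma sum, the gene types differed in opposite directions. The 19 gamma A and B genes together measured 14.2, 9.07 and 12.8 CPM in WT 2, WT 3 and WT 4 against 14.7, 17.9 and 21.1 CPM in iKO 3, iKO 4 and iKO 33. The 3 C-type genes measured 85.5, 68.6 and 82.9 CPM against 55.0, 67.9 and 59.2 CPM. In neither sum did the groups overlap, although the gap was narrow in both (14.2 against 14.7 CPM, and 68.6 against 67.9 CPM). Without Pcdhga11 and Pcdhga12 the other 17 A and B genes measured 11.7 ± 2.68 and 13.9 ± 3.38 CPM (SD, n = 3), with overlap.

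Pcdhgc3, the C-type gene that many non-neuronal tissues express, was the predominant member in every library. It took 85.3%, 88.0% and 86.4% of gamma counts in WT 2, WT 3 and WT 4 and 78.4%, 79.0% and 73.4% in iKO 3, iKO 4 and iKO 33. Its level was 85.1, 68.3 and 82.6 CPM against 54.6, 67.7 and 58.9 CPM, so every library labelled iKO lay below every library labelled WT, by a narrow margin. The log2 fold change was -0.38 (SE 0.14), with an unadjusted p of 0.0273 and, after Benjamini-Hochberg adjustment over all genes, an edgeR adjusted p = 0.270. Per kilobase of its own exon sequence Pcdhgc3 stood at 23.3 ± 2.67 and 17.9 ± 1.97 CPM per kb (SD, n = 3), a value that would be too high if it had received reads of the shared exons. The next member on that scale, Pcdhb17, stood at 1.47 ± 0.727 and 1.19 ± 0.429 CPM per kb. The other C-type genes, Pcdhgc4 and Pcdhgc5, had 2 to 16 counts per library, at most 0.277 CPM, and were not tested.

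**Figure D2:**
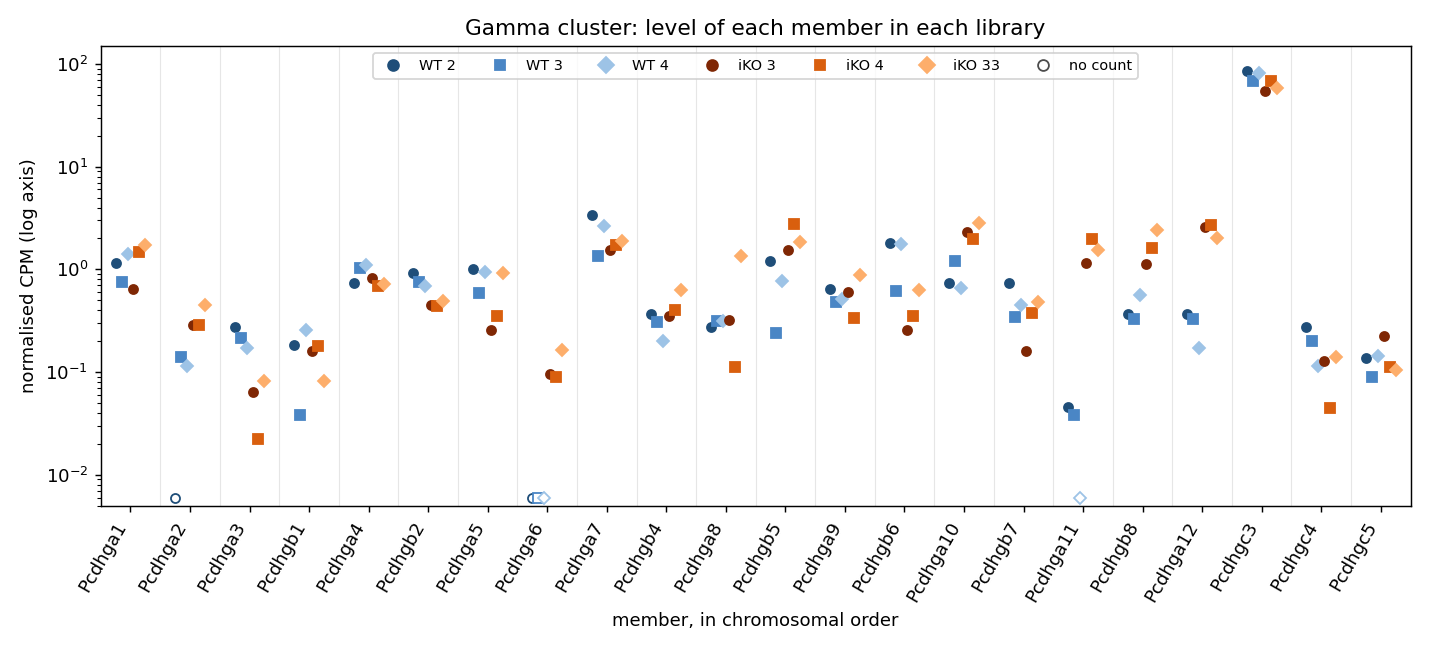
Normalised CPM (log axis) of the 22 gamma genes in chromosomal order, 1 symbol per library, with open symbols at the bottom for libraries without a count. Pcdhgc3 lies above all other members, and Pcdhga11 and Pcdhga12 show the libraries labelled iKO far above those labelled WT, while Pcdhgb2 shows the opposite order.

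Of the gamma genes, 17 of 22 passed the filter on low counts, and 2 of them passed an adjusted p of 0.05 in edgeR, both higher. The same threshold was passed by 0.339% of all 12672 tested genes (29 higher, 14 lower). No beta gene passed (0 of 12 tested), and no alpha gene was tested. Over all 22 gamma genes, tested or not, the groups did not overlap in 10 (7 higher, 3 lower), against 13.6% of all genes of the table (3196 of 23420). Only 18089 of those 23420 genes had a count in any library, and a gene without a count cannot separate the groups. Among the 17 tested gamma genes the groups did not overlap in 8, against 21.9% of all tested genes. An unadjusted p under 0.05 was reached by 9 tested gamma genes (6 higher, 3 lower), against 15% of all tested genes. These counts among tested genes include Pcdhga11, Pcdhga12, Pcdhga2 and Pcdhgb5, which needed the libraries labelled iKO, where they were higher, to pass the filter. Pcdhgb6, lower under that label, needed the libraries labelled WT in the same way. The counts leave out Pcdhga3, which was lower under the iKO label and did not pass the filter. DESeq2 called 4 gamma genes, all higher, against 6.12% of genes, and the authors' deposited table has adjusted p-values under 0.05 for the same number, also all higher, against 5.9% of its genes.

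Pcdhga11 had the widest difference in the family. It had 1, 3 and 0 counts in WT 2, WT 3 and WT 4, or 0.0461, 0.0380 and 0 CPM, and 36, 88 and 130 counts in iKO 3, iKO 4 and iKO 33, or 1.15, 1.96 and 1.53 CPM. It was thus close to the limit of detection in one group and well above it in each library of the other. The gene (37755773 to 37841873) rose by 5.64 on the log2 scale (SE 0.64, edgeR adjusted p = 0.0267, higher in 3 of 3 libraries), a size that depends on the few counts of the libraries labelled WT. The authors' deposited table gives Pcdhga11 a log2 fold change of 2.39 with an adjusted p of 1.93e-12. The DESeq2 fit run here gave 5.76, and the version behind the authors' value is not given, so the 2 sizes may not be on the same footing. Leaving out any library other than WT 4 ended the edgeR call (adjusted p up to 0.186), while the edgeR log2 fold change stayed between 5.17 and 6.21.

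Pcdhga12, the last A-type gene before the C types (37765580 to 37841873), was the other member past the threshold in edgeR. Its values were 0.369, 0.329 and 0.171 CPM in WT 2, WT 3 and WT 4 and 2.59, 2.71 and 2.00 CPM in iKO 3, iKO 4 and iKO 33, so the groups lay far apart. It rose by 3.07 on the log2 scale (SE 0.39, edgeR adjusted p = 0.0361, higher in 3 of 3 libraries). In the authors' deposited table it is 2.08, with an adjusted p of 4.27e-11, whereas the DESeq2 fit run here gave 3.07. Each of the 6 fits without 1 library lost the call for Pcdhga12 (adjusted p up to 0.194), with log2 fold changes of 2.79 to 3.22.

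Between and beside these genes lie Pcdhgb8 and Pcdhga10. Pcdhgb8, annotated as a polymorphic pseudogene, measured 0.369, 0.329 and 0.569 CPM against 1.12, 1.60 and 2.41 CPM, and Pcdhga10 measured 0.738, 1.20 and 0.654 CPM against 2.30, 1.98 and 2.85 CPM. The groups did not overlap in either gene. Their log2 fold changes of 2.03 (SE 0.42) and 1.44 (SE 0.35) had adjusted p = 0.114 and 0.154 in edgeR, above the threshold, whereas DESeq2 gave 0.00688 and 0.0229. The fifth gene of the stretch, Pcdhgb7, did not follow them, at 0.738, 0.342 and 0.455 CPM against 0.160, 0.378 and 0.482 CPM (log2 fold change -0.49, SE 0.51).

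These 5 genes, Pcdhga10, Pcdhgb7, Pcdhga11, Pcdhgb8 and Pcdhga12, are the A and B genes nearest the C types, a grouping made after their values were seen. Their summed level was 2.26, 2.24 and 1.85 CPM in WT 2, WT 3 and WT 4 and 7.32, 8.62 and 9.27 CPM in iKO 3, iKO 4 and iKO 33. The other 14 A and B genes together measured 9.91 ± 2.72 and 9.51 ± 2.25 CPM (SD, n = 3). The groups did not overlap in the first sum and overlapped in the second.

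Farther from the C types the A and B genes had values in both directions, none past the threshold. Pcdhgb5 measured 1.20, 0.241 and 0.768 CPM against 1.53, 2.78 and 1.85 CPM, without overlap (1.54 on the log2 scale, SE 0.59, edgeR adjusted p = 0.289). Pcdhgb6, its next B-type neighbour, had the largest negative value among tested members, at 1.80, 0.620 and 1.76 CPM against 0.256, 0.355 and 0.624 CPM (-1.69 on the log2 scale, SE 0.55, edgeR adjusted p = 0.227). The groups overlapped in Pcdhgb6 only because iKO 33 reached the level of WT 3. Pcdhga7, the leading A-type gene of the libraries labelled WT, measured 3.41, 1.34 and 2.67 CPM against 1.53, 1.73 and 1.87 CPM, with overlap and a log2 fold change of -0.51 (SE 0.38).

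Several weakly expressed gamma genes, chosen after their values were seen, also separated the groups. Pcdhgb2 measured 0.922, 0.760 and 0.682 CPM against 0.448, 0.444 and 0.494 CPM (-0.75 on the log2 scale, SE 0.32, edgeR adjusted p = 0.328). Pcdhga2 measured 0, 0.139 and 0.114 CPM against 0.288, 0.289 and 0.447 CPM (1.78 on the log2 scale, SE 0.66, edgeR adjusted p = 0.284). Pcdhga3 had 6, 17 and 6 counts in WT 2, WT 3 and WT 4 and 2, 1 and 7 in iKO 3, iKO 4 and iKO 33, without overlap in CPM, and was not tested. Pcdhga6, without a count in the libraries labelled WT, had 3, 4 and 14 counts in those labelled iKO. Against a floor of 3 counts over the WT libraries together (0.0221 CPM, counting error only), its pooled 0.130 CPM was at least 5.90-fold higher. Pcdhga8 owed its positive log2 fold change of 1.02 (SE 0.83) to iKO 33, with 115 counts there against 10 in iKO 3 and 5 in iKO 4, and stood at -0.54 without that library.

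**Figure D3:**
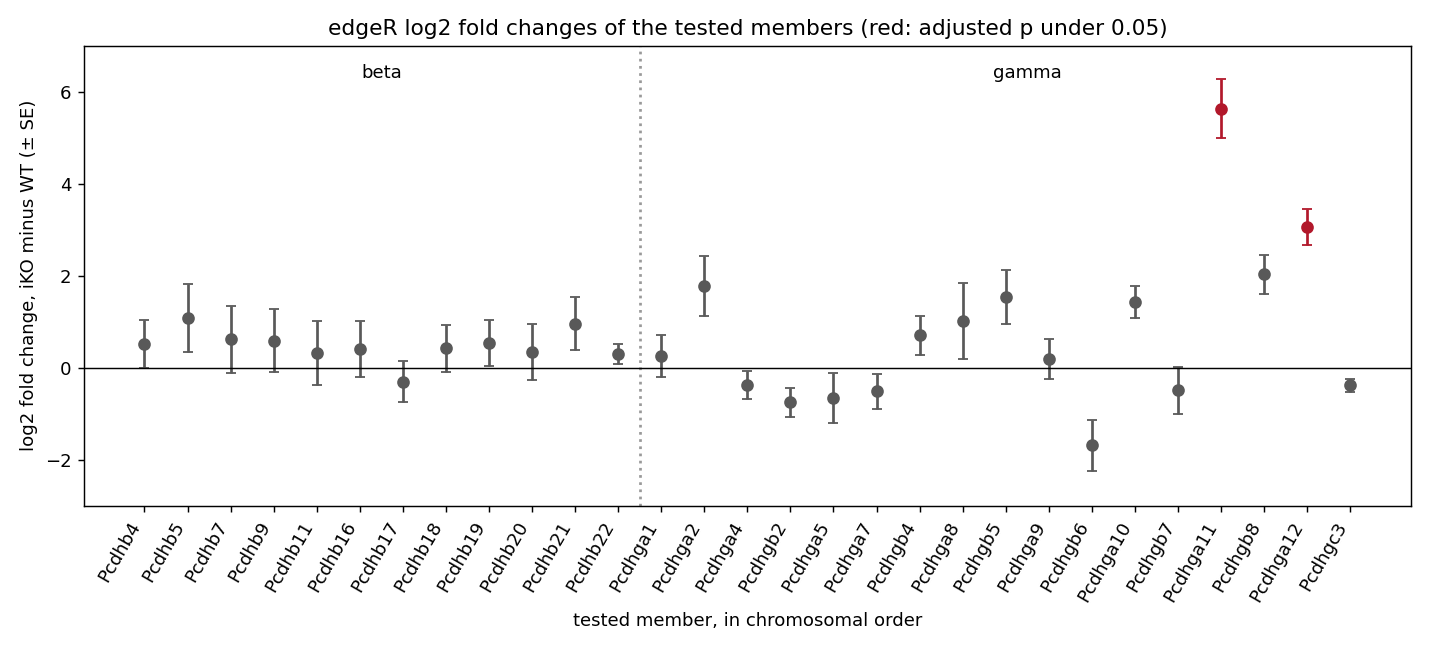
edgeR log2 fold changes (libraries labelled iKO minus WT, ± SE) of the 12 tested beta and 17 tested gamma genes in chromosomal order, with members past an adjusted p of 0.05 in red. Beta values stay between -0.30 and 1.07, whereas gamma values run from -1.69 (Pcdhgb6) to 5.64 (Pcdhga11), with the highest near the end of the A and B genes.

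As a result the mix of gamma A and B transcripts differed between the groups of libraries. Pcdhga7 led in WT 2, WT 3 and WT 4 with 23.9%, 14.8% and 20.9% of A and B counts. The leaders were Pcdhga12 in iKO 3 (17.6%), Pcdhgb5 in iKO 4 (15.5%) and Pcdhga10 in iKO 33 (13.5%), where Pcdhga7 held 8.85% to 10.4%. Pcdhga11 went from 0% to 0.419% of these counts to 7.23% to 10.9%, and Pcdhgb6 from 6.84% to 13.8% to 1.74% to 2.95%. The share of A and B counts that 2 libraries have in common (the smaller of their percentages, summed over genes) was 76.5% to 88.1% for pairs labelled WT, 81.7% to 85.0% for pairs labelled iKO, and 53.4% to 69.0% for the 9 pairs between groups. For beta genes the pairs within groups shared 81.4% to 88.3% and the pairs between groups 75.9% to 86.8%, so those ranges overlapped. These shares describe the libraries and carry no test.

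**Figure D4:**
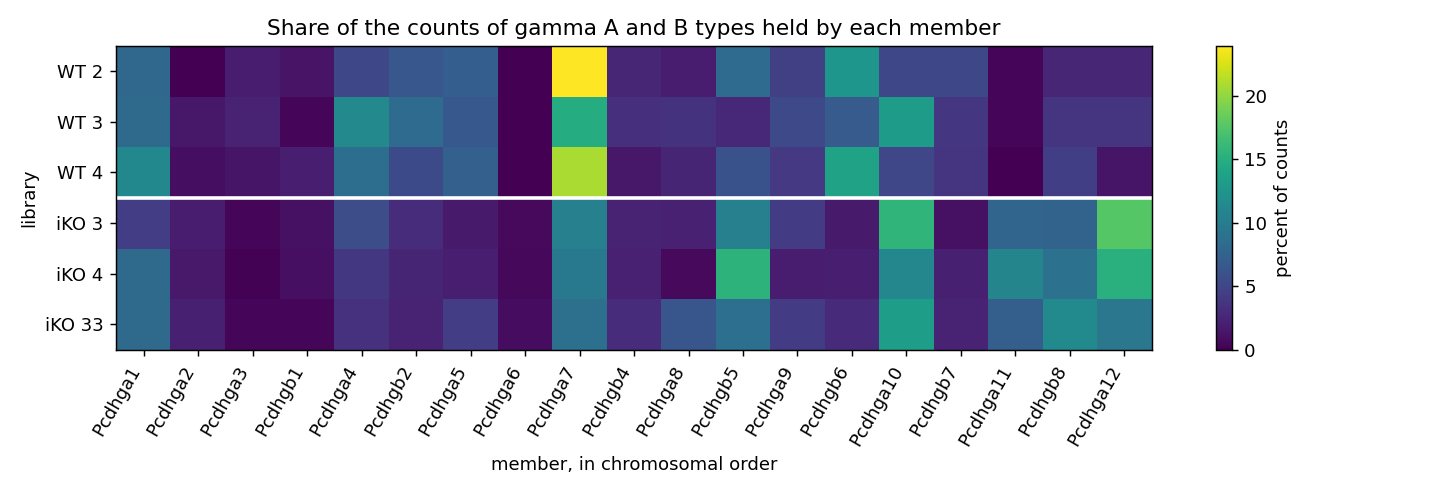
Percent of the counts of the 19 gamma A and B genes held by each gene (columns, in chromosomal order) in each library (rows, with a white line between the groups). Pcdhga7 and Pcdhgb6 are brighter in the libraries labelled WT, and Pcdhga11, Pcdhgb8 and Pcdhga12 in those labelled iKO, where Pcdhga11 holds 7.23% to 10.9%.

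Beta genes were spread over many members at low levels, and no difference between the groups passed. All 22 except Pcdhb1 had at least 1 count, and 2 to 6 of them reached 1 CPM in a library. The 5 with the highest mean CPM, Pcdhb17, Pcdhb22, Pcdhb16, Pcdhb19 and Pcdhb20, lie next to each other at the gamma end of the array, except that Pcdhb18 and Pcdhb21 stand among them. Pcdhb17, the leading beta gene in all 6 libraries with 25.2% to 40.7% of beta counts, measured 6.96, 3.43 and 10.2 CPM in WT 2, WT 3 and WT 4 and 3.71, 5.20 and 7.67 CPM in iKO 3, iKO 4 and iKO 33. Its log2 fold change was -0.30 (SE 0.44), the only negative one among the 12 tested beta genes, and it turned positive without WT 4 (0.10). Pcdhb16 measured 2.12, 0.772 and 4.66 CPM against 2.37, 4.31 and 3.28 CPM, or 0.41 on the log2 scale (SE 0.61), which became -0.039 once WT 3 was left out.

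Pcdhb22 was the steadiest beta gene, at 2.90, 2.46 and 2.87 CPM against 3.20, 3.29 and 3.61 CPM. Its groups did not overlap, with a log2 fold change of 0.30 (SE 0.23, edgeR adjusted p = 0.593). The other named beta genes overlapped: Pcdhb19 had a log2 fold change of 0.54 (SE 0.50), Pcdhb20 of 0.35 (SE 0.61), Pcdhb21 of 0.95 (SE 0.58) and Pcdhb5 of 1.07 (SE 0.74). The lowest adjusted p among tested beta genes was 0.487 (edgeR), and neither an unadjusted p under 0.05 nor a DESeq2 call occurred among them. The median log2 fold change was 0.47 over the 12 tested beta genes and 0.25 over the 17 tested gamma genes, beside 0.0091 over all tested genes. The beta median ranged from 0.11 without WT 3 to 0.98 without WT 4, and the gamma median was -0.28 without iKO 33.

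The 10 untested beta genes had at most 16 counts in any library. Among them Pcdhb12 had 0, 2 and 0 counts in WT 2, WT 3 and WT 4 against 4, 5 and 15 in iKO 3, iKO 4 and iKO 33, and Pcdhb13 and Pcdhb14 were also higher without overlap, at 0.0845 ± 0.00814 against 0.189 ± 0.0342 CPM and 0.0428 ± 0.0160 against 0.117 ± 0.0565 CPM (SD, n = 3). Pcdhb10 was lower without overlap, at 0.0624 ± 0.0275 against 0.0153 ± 0.0132 CPM. With Pcdhb22 these were the 5 beta genes of 22 whose groups did not overlap. The share was 13.6% over all genes of the table, which include genes without a count in any library. Pcdhb22 was the 1 of the 12 tested beta genes, against 21.9% of tested genes. All 5 apart from Pcdhb22 rest on a few reads per library.

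**Figure D5:**
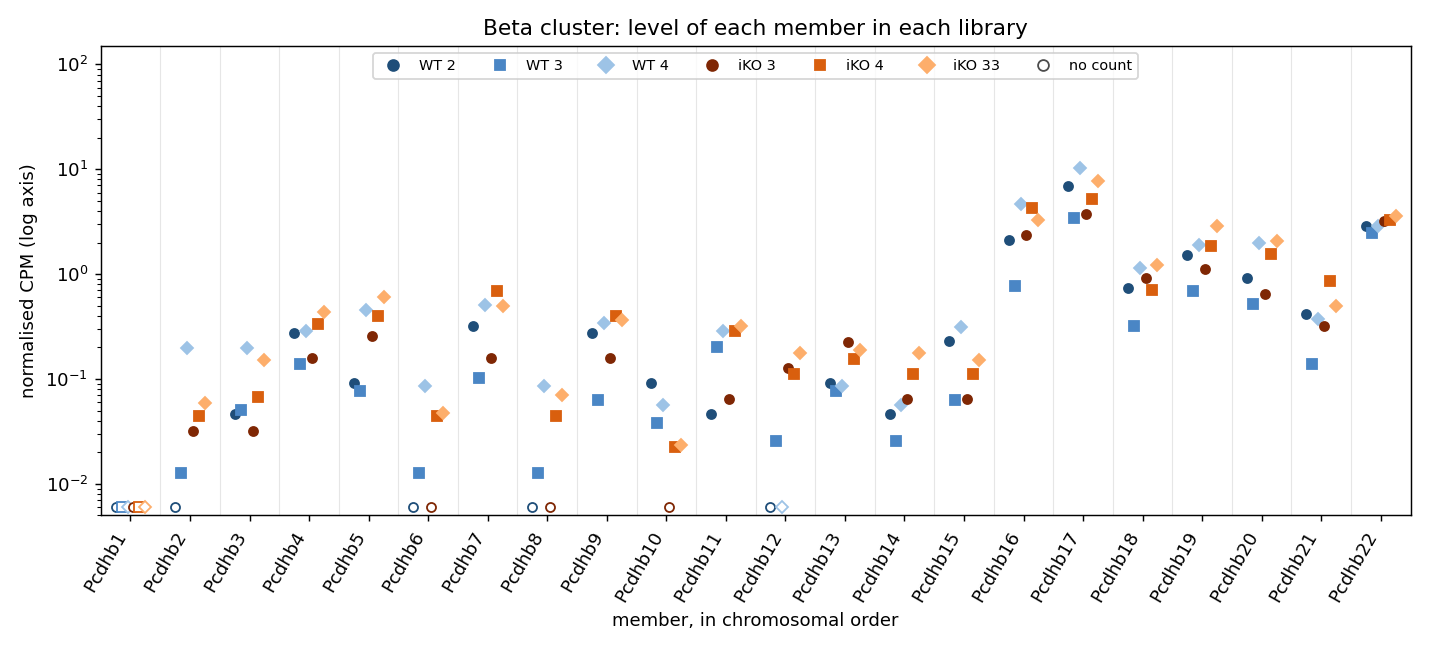
Normalised CPM (log axis) of the 22 beta genes in chromosomal order, 1 symbol per library, with open symbols at the bottom for libraries without a count. The groups are interleaved for most genes, WT 3 and iKO 3 tend to be lowest, and Pcdhb17, Pcdhb22 and Pcdhb16 have the highest means.

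The beta genes varied together between libraries of the same label. WT 3 was the lowest of its group for 11 of the 12 tested beta genes and iKO 3 the lowest of its group for 11, while WT 4 was highest for 10 and iKO 33 for 8. The beta sum reflected this, at 17.1, 9.23 and 26.0 CPM in WT 2, WT 3 and WT 4 and 13.6, 20.6 and 24.5 CPM in iKO 3, iKO 4 and iKO 33. WT 3, with the lowest sum of its group, and iKO 33, with the highest of its group, were the deepest libraries of their groups. Such ranks were not particular to beta genes. Among the 16 tested gamma A and B genes, iKO 33 was the highest of its group for 12 and iKO 3 the lowest for 10. In the WT group, WT 2 was highest for 10 of them and WT 3 lowest for 8. The same ranks over all tested genes are not given here. The biological coefficient of variation between libraries (the square root of the edgeR dispersion) had a median of 0.473 in tested beta genes, and it exceeded the trend for genes of like level in 10 of 12. The trend was exceeded by 25.3% of all tested genes and by 4 of the 17 tested gamma genes, whose median was 0.372. The estimate for Pcdhga8 (0.672) was the highest in the family, and that for Pcdhgc3 (0.147) the lowest.

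Alpha genes were close to absent. All alpha genes together had 2 to 15 counts per library, and no single gene had more than 5 in any library. Pcdha2, Pcdha4, Pcdha4-g, Pcdha7 and both C-type genes, Pcdhac1 and Pcdhac2, had no count anywhere, which allows up to 0.0353 CPM in the deepest and 0.138 CPM in the shallowest library (3 counts, counting error only). Pcdha4-g matched no RefSeq position and no GENCODE gene, so whether it shares exons with Pcdha4 is not known. If it does, reads there may have been dropped, and the limit would hold for neither. The alpha gene with the highest mean CPM, Pcdha12, had 1, 0 and 0 counts in WT 2, WT 3 and WT 4 and 4, 2 and 5 in iKO 3, iKO 4 and iKO 33. A mean of 0.0462 CPM or less over the 6 libraries held for each alpha gene, also for Pcdha9, Pcdha10, Pcdha5 and Pcdha3, the next in order. A difference between groups was not detectable at this depth in this cluster.

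No tested gene with a matched position within 1 Mb of the arrays passed the threshold in edgeR. There were 32 such genes whose symbol in the count table matched a RefSeq position, with 8 values above 0 and 24 below, and a median log2 fold change of -0.11 (lowest edgeR adjusted p = 0.109, Hbegf, an EGF receptor ligand gene, at 0.77, SE 0.16). Hbegf measured 52.5, 38.7 and 54.0 CPM against 91.3, 76.8 and 79.9 CPM, without overlap. It was the 1 gene of the 32 that DESeq2 called (adjusted p = 0.00152), against 6.12% of genes. Tested genes elsewhere on the chromosome had a median of -0.14. Taf7, a gene for a subunit of the general transcription factor TFIID that lies between the beta and gamma arrays, stood at -0.10 (SE 0.34). Hdac3, a histone deacetylase gene beyond the gamma array, stood at -0.10 (SE 0.095). From the list of neighbours written for this comparison 20 of 24 were tested, 3 higher and 17 lower. The smallest p belonged to Slc35a4 (-0.32, SE 0.11), Wdr55 (-0.26, SE 0.11) and Tmco6 (-0.40, SE 0.20), all lower without overlap, and neither edgeR (lowest adjusted p = 0.264) nor DESeq2 called any gene of this list, which does not hold Hbegf.

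No gene passed the threshold in edgeR from a list of 21 written as regulators of protocadherin promoters. Of 20 tested regulators 7 were higher and 13 lower, with a median of -0.044. An unadjusted p under 0.05 was found for 1 of them, against 15% of all tested genes. Ctcf, the architectural zinc finger protein that binds these promoters, stood at 124, 112 and 135 CPM against 104, 125 and 110 CPM (-0.13, SE 0.12). Rad21, a cohesin subunit gene, stood at -0.0098 (SE 0.13), and Smchd1, which silences clustered genes including protocadherins, at 0.0091 (SE 0.12). Dnmt3b, the de novo DNA methyltransferase that methylates protocadherin promoters early in development, measured 11.2, 16.0 and 11.2 CPM in WT 2, WT 3 and WT 4 against 6.11, 8.71 and 7.46 CPM in iKO 3, iKO 4 and iKO 33. Its groups did not overlap, and its log2 fold change of -0.79 (SE 0.22) had an adjusted p of 0.183 in edgeR and 0.0372 in DESeq2. The maintenance methyltransferase gene Dnmt1 stood at -0.47 (SE 0.21) and the cohesin loader gene Nipbl at 0.43 (SE 0.19), both with overlap. Whether these values bear on the gamma genes was not tested.

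Genes that act on or after the protocadherin proteins were also without a call. Of 21 tested genes, among them those for the shedding protease ADAM10 and the WAVE complex, 11 were higher and 10 lower, with a median of 0.011. None had an unadjusted p under 0.05 or was called by DESeq2, and the smallest p belonged to Abi2 (-0.52, SE 0.27), Pdcd10 (0.24, SE 0.18) and Nckap1 (-0.23, SE 0.19), all with overlap.

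Of 20 protocadherins outside the arrays and other large cadherins, 7 had enough counts to be tested. They were split 4 up to 3 down in sign, without a call in edgeR (lowest adjusted p = 0.176). Pcdh7, a delta protocadherin gene, measured 109, 137 and 123 CPM against 53.1, 62.0 and 93.5 CPM, without overlap (-0.82, SE 0.22), and passed in DESeq2 only (adjusted p = 0.0199). Pcdh1, an epithelial delta protocadherin gene on the same chromosome, stood at 0.40 (SE 0.32) with overlap. Fat2, a giant cadherin gene (-0.33, SE 0.17), and Celsr2, another large cadherin gene (0.21, SE 0.14), overlapped too.

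Since protocadherins are best known in neurons, markers of other cell types were set beside them. The neuronal list summed to 188 to 406 CPM across WT 2, WT 3 and WT 4 and 301 to 480 CPM across iKO 3, iKO 4 and iKO 33, nearly all of it from the tubulin gene Tubb3 and from Map2. Stmn2 stood at 3.10 to 9.50 CPM and 4.89 to 10.7 CPM, with overlap. Syp reached 0.320 CPM and Dcx 0.231 CPM, Snap25, Rbfox3, Elavl3 and Syt1 stayed at or below 0.128 CPM, and Nefl and Elavl4 had no count. All 4 tested neuronal genes were higher, against 6483 of all 12672 tested genes. Gap43, a growth cone gene, stood at 0.277, 0.152 and 0.682 CPM against 1.44, 5.24 and 3.77 CPM (3.27, SE 0.71, edgeR adjusted p = 0.121, DESeq2 adjusted p = 0.000272). It needed the libraries labelled iKO to pass the filter. Map2 measured 41.3, 66.8 and 31.1 CPM against 68.3, 69.8 and 75.0 CPM, without overlap (0.61, SE 0.26, edgeR adjusted p = 0.345). Among untested neuronal genes, Dcx and Syt1 had lower means under the iKO label. Snap25, Syp, Rbfox3 and Elavl3 had higher ones, and the groups overlapped in each. The Schwann cell and neural crest list summed to 25.9 to 35.2 and 35.3 to 45.9 CPM, almost all from Erbb3, with Foxd3 at 0 and Sox10 at or below 0.0235 CPM, and both of its tested genes were higher. Fibroblast markers summed to 0.830 to 2.64 and 0.991 to 3.38 CPM, with Dcn and Lum at 0. Melanocyte markers summed to 6.08 to 11.9 and 5.69 to 8.45 CPM, endothelial markers to 9.87 to 19.1 and 7.58 to 9.05 CPM, and immune markers to 1.88 to 4.15 and 2.60 to 3.26 CPM. No list had a gene past the threshold in edgeR, and the part of these genes in the gamma differences was not tested.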

How the data were processed

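A TruSeq RNA v2 kit was used on total RNA, per the labels' protocols. Alignment and counting tools (TopHat2 and HTSeq), DESeq and DESeq2, and mm10 as the genome appear in the submitters' processing notes with no version. The sources used here do not give the annotation, the strand setting or the counting mode. The deposited counts are whole, unscaled numbers of reads for 23420 gene symbols in 6 libraries. The 5 HTSeq summary rows were left out. They made up 34.8% to 35.5% of the libraries labelled WT and 27.4% to 32% of those labelled iKO, without overlap. Reads without a unique alignment made up 29.5% to 30.5% and 21.7% to 26.5%. Whether this difference bears on the members was not tested. The authors' deposited table holds, per the file headers, each gene's mean normalised signal and its log2 fold change and SE, besides a test score and p-values before and after adjustment.

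Counts were tested in R 4.3.3 with edgeR 4.0.16 (filterByExpr with a minimum count of 10, TMM factors, robust glmQLFit and glmQLFTest, group as the only term, two-sided, Benjamini-Hochberg adjustment over all 12672 tested genes at 0.05). The approximate SE is the absolute log2 fold change over the square root of F. Alternatives used DESeq2 1.42.0 and limma 3.58.1 and are given at the end. The procedure was tested on simulated data, with changes placed only in genes at a higher level than Pcdhga11 and Pcdhga12. That test does not show how well changes at their level are recovered. No pair of libraries of a group agreed within sampling noise (lowest chi-square per degree of freedom 48.6).

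Members are the 59 symbols of the alpha, beta and gamma arrays; members and lists were chosen with earlier results of these data known. Members described singly are the 5 with the highest mean CPM and the 4 with the smallest p of each cluster, the C types and those past the threshold. Of each related list up to 3 genes with the smallest p were described, with Ctcf, Rad21, Smchd1, Dnmt3b and Pcdh1. Pcdhgb2, Pcdhgb6, Pcdhgb7, Pcdhga2, Pcdhga3, Pcdhga6, Pcdhga8, Pcdhb10, Pcdhb12, Pcdhb13, Pcdhb14, Hbegf, Taf7, Hdac3, Krt10, Trp63, Map2 and Gap43 were chosen after their values were seen. Positions come from RefSeq (GRCm38.p6, 58 members matched) and exons from GENCODE M21 (56 matched).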

Additional observations from a re-analysis of the deposited data

How the results depend on the processing

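The 2 calls in the gamma cluster, Pcdhga11 and Pcdhga12, held under both other scalings, both other count filters, limma-voom and no robust estimation. DESeq2 called 4 gamma genes, adding Pcdhga10 and Pcdhgb8. Leaving out 1 library left 0 to 1 gamma calls, and over all genes 7 to 31 in place of 43. Over all genes DESeq2 called 775 and the fit with no filter 76. A replicate block on the numbers 3 and 4, which fits 4 libraries without WT 2 and iKO 33, called 103 genes and 0 gamma genes (adjusted p = 0.0551 for Pcdhga11 and 0.0529 for Pcdhga12). The same 4 libraries without a block, a choice made after seeing the data, called 4 genes and 0 gamma genes. Deviations of same-numbered libraries correlated at 0.318 and 0.713 across genes. No such value is given here for libraries with different numbers, so these 2 values do not show whether same-numbered libraries pair.

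Directions changed for values far from the threshold. The beta sum had a log2 ratio of 0.16, of -0.14 without WT 3 and -0.029 without iKO 33, within a range of -0.14 to 0.56. Over single omissions the gamma sum ranged from -0.31 to -0.13 and the A and B sum from 0.41 to 0.71. The gamma median was -0.28 without iKO 33, -0.11 with the block and -0.090 in the 4 libraries alone. Pcdhga8 stood at -0.54, -0.61 and -0.59 in these fits, and over single omissions reached 1.497. Pcdhb20 stood at -0.025 without iKO 33, -0.023 without WT 3, -0.050 with the block and -0.15 in the 4 libraries alone, and at 1.03 without WT 4. Pcdhb17 was 0.049 in limma-voom and 0.10 without WT 4, but -0.63 without WT 3, and Pcdhb16 was -0.039 without WT 3 and 1.24 without WT 4. The cause was not tested. Depth limits the alpha genes and the gamma and beta genes with a few counts per library.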
